A study of Mus musculus with 12 samples.

Results

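The 10 genes described here, of 56953 in the expression tables, encode Toll-like receptors and the proteins that present bacterial lipopolysaccharide (LPS) to them. They are Tlr2, Tlr4, Tlr7, Tlr8, Tlr9 and Tlr13, the LPS co-receptors Cd14 and Ly96, the LPS carrier Lbp, and Unc93b1, the chaperone of the endosomal receptors. The members were chosen by name and matched by mouse symbol to the Ensembl rows of the tables, and all 10 were found and had counts in each library. Their RNA was read in 4 groups of 3 libraries of myeloid cells from the bone marrow of female C57BL/6J mice aged 8 weeks. All cells came from the lineage-tracing cross Rank cre/+;R26.eYFP fl/+, in which Cre from the Rank locus switches on eYFP. F4/80hi CD206+ VCAM1+ macrophages were sorted as eYFP+ macrophages, held to be of embryonic origin, and as eYFP- macrophages, held to descend from adult stem cells. CD11b+ monocytes were sorted as Ly6Chi monocytes and Ly6Clo monocytes. Origin is thus read from a reporter: an eYFP- cell is 1 in which the reporter was not switched on. No treatment was given, so the values describe unstimulated cells. Whether a library holds 1 mouse or a pool is not stated in the sources used here, so p-values measure the spread between these libraries, which may be partly technical.

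Toll-like receptors are membrane proteins of innate immune cells that bind conserved molecules of microbes and signal through adaptors such as Myd88 to the transcription factors NF-kB and IRF. Tlr4 recognises LPS of Gram-negative bacteria only together with Ly96. Lbp, best known as a liver-derived plasma protein, extracts LPS from bacterial membranes, and Cd14 hands it on to the Tlr4-Ly96 complex. Tlr2 pairs with Tlr1 or Tlr6 and binds bacterial lipoproteins. Tlr7, Tlr8, Tlr9 and Tlr13 sit in endosomes, where Tlr7 binds single-stranded RNA, Tlr9 unmethylated CpG DNA and Tlr13 bacterial ribosomal RNA. Unc93b1 carries these endosomal receptors out of the endoplasmic reticulum. In bone marrow, resident macrophages are known for clearing cells and nursing erythroblasts, and monocytes for leaving the marrow as circulating phagocytes.

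Promoter sequences of 4 members, Tlr2, Tlr8, Tlr9 and Tlr13, were taken from RefSeq on mouse build GRCm38.p6, a build other than the GRCm39 of the expression tables. The stretches of Tlr2 and Tlr13 are given because these were the most abundant of the receptors in Ly6Chi monocytes, and Tlr13 was called between the cell types while Tlr2 was not. Each is the stretch of 250 bases directly upstream of the annotated start, written 5′ to 3′ on the strand of the gene. Capitals mark matches to NF-kB (GGGANTTCC) in Tlr2, where matches on both strands overlap, and to the PU.1 core (GAGGAA) in Tlr13.
Tlr2, chr3:83841609-83841858, minus strand: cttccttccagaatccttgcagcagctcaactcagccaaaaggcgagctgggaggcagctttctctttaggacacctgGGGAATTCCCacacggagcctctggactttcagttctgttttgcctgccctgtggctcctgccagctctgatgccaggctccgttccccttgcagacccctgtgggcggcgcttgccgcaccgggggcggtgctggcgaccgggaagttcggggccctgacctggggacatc
Tlr13, chrX:106143025-106143274, plus strand: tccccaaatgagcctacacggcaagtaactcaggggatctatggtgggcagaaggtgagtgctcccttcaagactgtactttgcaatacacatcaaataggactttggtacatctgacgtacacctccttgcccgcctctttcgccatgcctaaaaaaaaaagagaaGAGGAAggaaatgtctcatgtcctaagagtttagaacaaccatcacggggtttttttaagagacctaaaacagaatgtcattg

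The NF-kB letters of Tlr2 began 172 bases upstream of the start, and the PU.1 core of Tlr13 began 83 bases upstream. Tlr9 held a PU.1 core 112 bases and an AP-1 match (TGANTCA) 58 bases upstream. Tlr8 held a PU.1 core on the opposite strand 77 bases upstream, and TATAAA matches on both strands at 89 and 91 bases. With both strands searched, the NF-kB letters occurred in 1.43% of 32851 RefSeq promoters of that length, TGANTCA in 6.75%, TATAAA in 12.4% and GAGGAA in 23.2%. These matches are a description of letters and do not show binding. The 250 bases were GC-rich in Tlr2 (62.8%) and AT-rich in Tlr8 (31.2% GC), with 50.4% in Tlr9 and 44.4% in Tlr13.

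Depth ran from 26390927 to 48618187 counts per library, and 16434 to 27634 genes had a count. Both were lowest in Ly6Clo replicate 2. A pair of libraries stood apart: among the tenth of transcripts richest in GC, Ly6Clo replicate 2 had a median log2 ratio of -1.33 to its fellow replicates and eYFP+ replicate 1 one of -0.72, against -0.07 to 0.69 in the other 10. Transcripts of Unc93b1 (57.3% GC), Tlr9 (56.2%), Lbp (53.2%) and Cd14 (52.5%) were the richest in GC of the members, and Tlr4 (39.4%) the poorest. Calls of members that change without these libraries are given with and without them. The cell type labels held in the markers: 8 macrophage markers summed to 29480 TPM or more in each macrophage library and to at most 3250 TPM in each monocyte library. For 8 monocyte markers the sum was at least 778 TPM in monocytes and at most 127 TPM in macrophages. TPM are counts per gene length scaled to the same total in each library, and only these are used to compare 1 gene with another.

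Macrophages carried far more mRNA for the LPS receptor complex than monocytes. Tlr4, Cd14 and Ly96 were all higher in macrophages, and the 6 macrophage libraries lay above the 6 monocyte libraries for each. Over the 10 members, 7 passed DESeq2 at an adjusted p under 0.05 when the mean of both macrophage groups was compared with the mean of both monocyte groups. Of these, 5 were higher and 2 lower in macrophages. Without eYFP- replicate 2, 5 members passed, with Tlr7 and Unc93b1 lost. Without Ly6Clo replicate 2, Tlr8 and Tlr9 passed too, and without the GC pair all 10 did, while the calls over all genes rose from 7915 to 9509. The background was large, since 35.4% of the 22385 genes tested were called, 20.3% higher and 15.0% lower. The median log2 fold change of the members was 0.62, beside 0.08 over all genes tested. Markers of other cells moved with the cell type: 8 neutrophil markers summed to 67.5 to 2033 TPM in macrophages and 6776 to 22582 TPM in monocytes, and 5 erythroid markers to 6735 to 28252 TPM and 273 to 1080 TPM. The 6 B cell markers, of which 1 was called higher in macrophages, summed to 459 to 702 TPM and 29.4 to 144 TPM. Sums of plasmacytoid dendritic cell markers (2 of 3 tested higher) were 2.84 to 10.4 TPM and 0.433 to 3.25 TPM, of stromal and endothelial markers (2 of 6 higher) 47.0 to 114 TPM and 6.21 to 115 TPM, and of eosinophil and basophil markers (1 of 4 tested higher) 12.2 to 1303 TPM and 0 to 561 TPM. Of 6 progenitor markers 1 was higher and 1 lower. Their part in the differences of the members was not tested.

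Normalized counts (counts after division by each library's size factor from DESeq2) are given for replicates 1, 2 and 3 in that order. Tlr4 (ENSMUSG00000039005) had 17864, 14702 and 16183 normalized counts in eYFP+ macrophages and 7385, 13236 and 10363 in eYFP- macrophages. It had 1687, 1796 and 1949.8 in Ly6Chi monocytes and 2182, 1217 and 1499 in Ly6Clo monocytes. The lowest macrophage library was thus more than 3 times the highest monocyte library. Tlr4 was 7.53-fold higher in macrophages, a log2 fold change of 2.91 ± 0.22 (SE; 95% interval 2.48 to 3.35; DESeq2 adjusted p = 2.3e-37; edgeR adjusted p = 1.18e-06). In bulk RNA a higher level per cell and a larger share of expressing cells cannot be told apart. Each macrophage group passed against each monocyte group, with fold changes of 8.97 (eYFP+ over Ly6Chi), 9.95 (eYFP+ over Ly6Clo), 5.70 (eYFP- over Ly6Chi) and 6.32 (eYFP- over Ly6Clo).

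**Figure D1:**
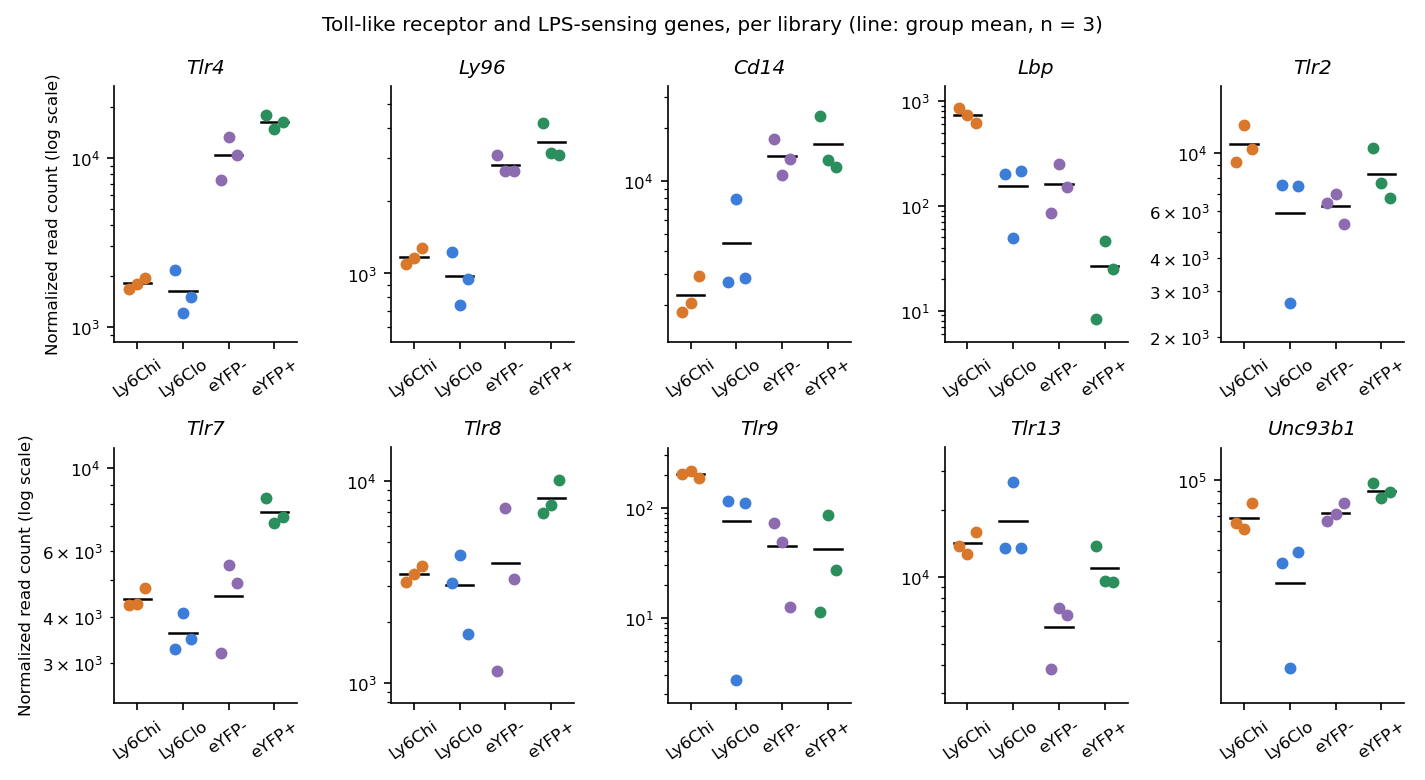
Normalized counts of the 10 members in each of the 12 libraries; each point is a library, grouped along the horizontal axis by cell population, and the vertical axes are logarithmic. Tlr4, Cd14 and Ly96 lie higher in all 6 macrophage libraries than in any monocyte library, Lbp is highest in Ly6Chi monocytes, and Tlr9 is low throughout.

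Ly96 (ENSMUSG00000025779), without which Tlr4 does not bind LPS, had 4192, 3157 and 3074 normalized counts in eYFP+ macrophages and 3084, 2639.7 and 2654 in eYFP- macrophages. It had 1092, 1155 and 1272 in Ly6Chi monocytes and 1231, 739.6 and 949 in Ly6Clo monocytes. The cell types did not overlap, and eYFP+ replicate 1 was the highest library. Ly96 was 2.91-fold higher in macrophages (log2 1.54 ± 0.19, SE; DESeq2 adjusted p = 9.81e-15; edgeR adjusted p = 4.17e-05).

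Cd14 (ENSMUSG00000051439) had 23350.0, 13078 and 12015 normalized counts in eYFP+ macrophages and 17192, 10797 and 13345 in eYFP- macrophages. In Ly6Chi monocytes it had 1821, 2039 and 2907, and in Ly6Clo monocytes 2694, 7945 and 2828. Ly6Clo replicate 2, 1 of the pair that stood apart in GC, was the highest monocyte library and still lay under each macrophage library. Cd14 was 4.69-fold higher in macrophages (log2 2.23 ± 0.34, SE; DESeq2 adjusted p = 4.45e-10; edgeR adjusted p = 0.000157).

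Per gene length, Ly96 exceeded Tlr4 in every library. Ly96 stood at 219 to 307 TPM in macrophages and 53.6 to 100 TPM in monocytes, and Tlr4 at 86.5 to 219 TPM and 13.7 to 27.5 TPM. The TPM ratio of Ly96 to Tlr4 was 1.23 to 2.69 in the 6 macrophage libraries and 3.64 to 4.21 in the 6 monocyte libraries, with no overlap. Tlr4 mRNA was thus scarcer relative to its partner in monocytes than in macrophages. Cd14 ran from 380.4 to 658 TPM in macrophages and from 53.5 to 222 TPM in monocytes, and its ratio to Tlr4 overlapped between the cell types (1.84 to 5.78 and 2.68 to 16.2). The 16.2 was of Ly6Clo replicate 2, of the GC pair, and the next monocyte library had 4.69.

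Lbp (ENSMUSG00000016024) followed the opposite order and was the member that differed most between groups. It had 853, 744 and 623 normalized counts in Ly6Chi monocytes and 203, 49.6 and 215 in Ly6Clo monocytes. In eYFP- macrophages it had 84.9, 254 and 152, and in eYFP+ macrophages 8.23, 45.8 and 25.2, from 8, 48 and 34 raw counts. Ly6Chi monocytes lay above every other library and eYFP+ macrophages below every other library. All values were low per length, with at most 16.3 TPM in Ly6Chi monocytes and at most 0.954 TPM in eYFP+ macrophages. Lbp was 5.17-fold lower in macrophages than in monocytes (log2 -2.37 ± 0.46, SE; DESeq2 adjusted p = 1.75e-06; edgeR adjusted p = 0.00218), and by limma on log2(TPM + 1) the log2 was -1.56 (adjusted p = 0.0014). The largest step was from Ly6Chi monocytes to eYFP+ macrophages, 28-fold lower (log2 -4.81 ± 0.65, SE; DESeq2 adjusted p = 4.62e-12). For this step Lbp had a log2 of -5.45 without eYFP+ replicate 2, the highest of its group, and of -3.31 by limma on log2(TPM + 1). eYFP- macrophages and Ly6Clo monocytes, neighbours in this order, differed by a log2 of 0.07 with a 95% interval of -1.19 to 1.32 (DESeq2 adjusted p = 0.962).

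**Figure D2:**
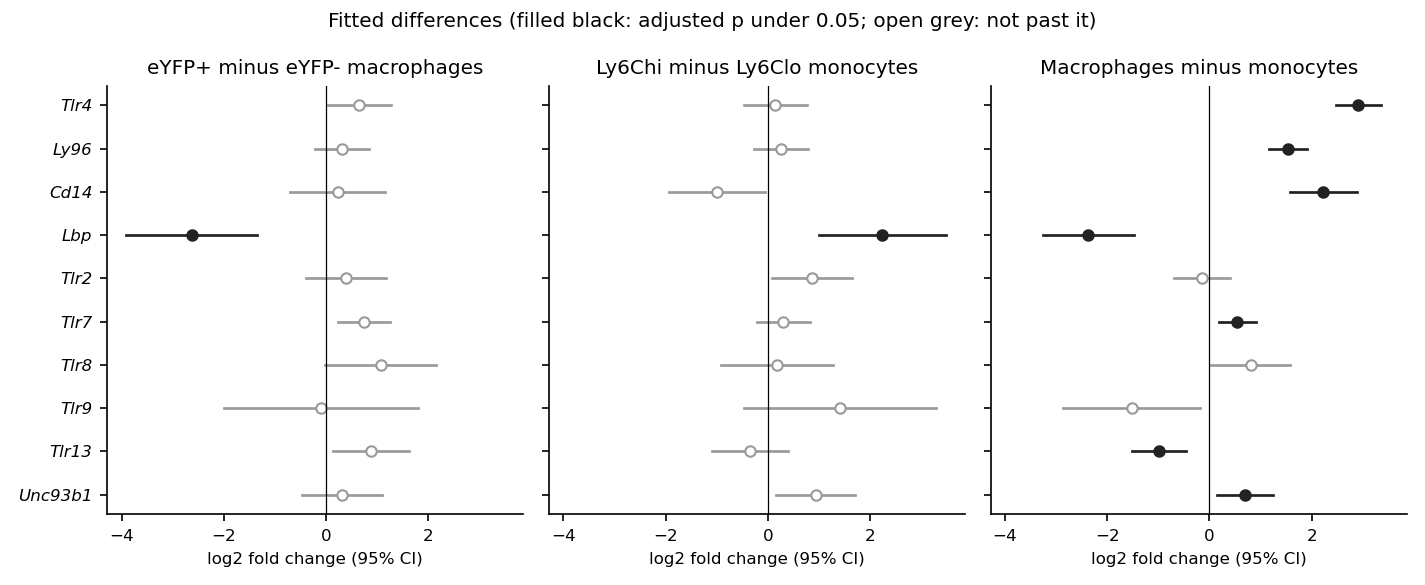
Log2 fold changes of the 10 members with 95% intervals in 3 comparisons: macrophages minus monocytes, eYFP+ minus eYFP- macrophages, and Ly6Chi minus Ly6Clo monocytes; filled points passed DESeq2 at an adjusted p under 0.05. Between cell types 7 members passed, within each cell type Lbp alone.

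Tlr2, the receptor of bacterial lipoproteins, gave no called difference in any of the 6 pairs of groups. Tlr2 (ENSMUSG00000027995) had 10378, 7693 and 6737 normalized counts in eYFP+ macrophages and 6466, 6976 and 5383 in eYFP- macrophages. Ly6Chi monocytes had 9240.3, 12727 and 10327, and Ly6Clo monocytes 7557, 2699.7 and 7486. All 4 groups overlapped a neighbour, and the low value of Ly6Clo replicate 2 set the spread of its group. The macrophage-minus-monocyte log2 fold change of Tlr2 was -0.15 with a 95% interval of -0.70 to 0.41 (DESeq2 adjusted p = 0.743). Without the pair of libraries that stood apart in GC it was -0.46 (DESeq2 adjusted p = 0.00595), so Tlr2 passed without them. Without Ly6Clo replicate 2 alone, Tlr2 was called for eYFP- against Ly6Chi.

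Among the endosomal receptors, Tlr7 was higher and Tlr13 lower in macrophages, while Tlr8 and Tlr9 did not pass. Tlr7 (ENSMUSG00000044583), the single-stranded RNA receptor, had 8328, 7147 and 7390.3 normalized counts in eYFP+ macrophages and 3194, 5514 and 4908 in eYFP- macrophages. It had 4307, 4336 and 4764 in Ly6Chi monocytes and 3281, 4097 and 3490.4 in Ly6Clo monocytes. Only eYFP+ macrophages stood clear of the other groups, and eYFP- macrophages overlapped both monocyte groups. The macrophage-minus-monocyte log2 fold change of Tlr7 was 0.55 ± 0.19 (SE; 1.46-fold; DESeq2 adjusted p = 0.0114; edgeR adjusted p = 0.0193). By pair, the eYFP+ group passed over Ly6Chi (log2 0.77; DESeq2 adjusted p = 0.0166) and over Ly6Clo (log2 1.07; DESeq2 adjusted p = 0.000341). The eYFP- group did not pass over Ly6Chi (log2 0.02, 95% interval -0.49 to 0.54) or Ly6Clo (log2 0.33, 95% interval -0.19 to 0.84). Without eYFP- replicate 2 or 3 the call for Tlr7 over both macrophage groups was lost (DESeq2 adjusted p = 0.0733 and 0.0505). The call for eYFP+ over Ly6Chi was lost without eYFP+ replicate 1 or 3 or Ly6Chi replicate 1 or 2, at DESeq2 adjusted p of 0.0514 to 0.0827.

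Tlr13 (ENSMUSG00000033777), the receptor of bacterial ribosomal RNA, had 13814, 12705 and 15984 normalized counts in Ly6Chi monocytes and 13545, 26784 and 13480.0 in Ly6Clo monocytes. eYFP+ macrophages had 13811, 9625 and 9446, and eYFP- macrophages 3846, 7225 and 6729. The eYFP- libraries were the 3 lowest of the 12, and eYFP+ replicate 1, also of the GC pair, reached the level of monocytes. Tlr13 was 1.98-fold lower in macrophages (log2 -0.98 ± 0.27, SE; DESeq2 adjusted p = 0.00115; edgeR adjusted p = 0.00487). The eYFP- group passed against Ly6Chi monocytes (log2 -1.26; DESeq2 adjusted p = 0.00522) and Ly6Clo monocytes (log2 -1.60; DESeq2 adjusted p = 0.000242). For the eYFP+ group the log2 values were -0.37 (95% interval -1.11 to 0.37) and -0.71 (95% interval -1.45 to 0.03), and neither passed. Without eYFP- replicate 1, the lowest library, the adjusted p of the eYFP- group against Ly6Chi monocytes was 0.0502 by DESeq2.

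Tlr8 (ENSMUSG00000040522), a relative of Tlr7, varied most between replicates of eYFP- macrophages, with 1146, 7319.7 and 3259.5 normalized counts. eYFP+ macrophages had 6943, 7566 and 10073, Ly6Chi monocytes 3147, 3441 and 3782, and Ly6Clo monocytes 3114, 4277 and 1746. The 3 eYFP+ libraries lay above all monocyte libraries and overlapped the eYFP- group through its replicate 2. The macrophage-minus-monocyte log2 fold change of Tlr8 was 0.80 (95% interval 0.03 to 1.58; DESeq2 adjusted p = 0.102). It was 1.03 without eYFP- replicate 1 (DESeq2 adjusted p = 0.00573) 0.91 without Ly6Clo replicate 2 (DESeq2 adjusted p = 0.0379) and 0.97 without the GC pair (DESeq2 adjusted p = 0.0248). The pair eYFP+ over Ly6Clo passed for Tlr8 by DESeq2 (log2 1.43; adjusted p = 0.0397) and not by edgeR (adjusted p = 0.0711). This call was lost on leaving out any library other than eYFP- replicates 1 and 2 and Ly6Clo replicate 2, at DESeq2 adjusted p of 0.0574 to 0.161.

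Tlr9 (ENSMUSG00000045322), the CpG DNA receptor, was scarce in all groups. Ly6Chi monocytes had 203, 219 and 188 normalized counts and Ly6Clo monocytes 115, 2.68 and 111, the value of replicate 2 resting on 2 raw counts. eYFP- macrophages had 73.0, 49.1 and 12.6, and eYFP+ macrophages 11.3, 86.8 and 27.4. The highest level of Tlr9 was 3.04 TPM, against 309 TPM or more of its chaperone Unc93b1 in every library. Each macrophage library lay under each monocyte library apart from Ly6Clo replicate 2. The macrophage-minus-monocyte log2 fold change of Tlr9 was -1.52 (95% interval -2.86 to -0.19; DESeq2 adjusted p = 0.0668), and -1.86 without Ly6Clo replicate 2 (DESeq2 adjusted p = 0.000911). It also passed without eYFP+ replicate 2 (-2.08; DESeq2 adjusted p = 0.0184), without eYFP- replicate 1 (-1.79; DESeq2 adjusted p = 0.0483) and without both libraries of the GC pair (-1.63; DESeq2 adjusted p = 0.001). With a GC correction Tlr9 passed by DESeq2 (-1.58; adjusted p = 0.0324, and 0.0498 with the replicate block added), as it did by limma on log2(TPM + 1) (-0.76; adjusted p = 0.0393).

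Unc93b1 (ENSMUSG00000036908), the chaperone, was the most abundant member in each library, at 1398 to 2162 TPM in macrophages, 1306 to 1699.6 TPM in Ly6Chi monocytes and 309 to 1036 TPM in Ly6Clo monocytes. In Ly6Clo replicate 2 its 309 TPM barely exceeded the 302 TPM of Tlr13. In normalized counts eYFP+ macrophages had 97495, 83578 and 88952 and eYFP- macrophages 66299, 71420.5 and 79679. Ly6Chi monocytes had 65127, 61234 and 79968, and Ly6Clo monocytes 43576, 15302 and 48886. eYFP+ macrophages lay above and Ly6Clo monocytes below all other libraries, and the remaining groups overlapped. Unc93b1 passed for macrophages over monocytes by DESeq2 (log2 0.70 ± 0.28, SE; 1.62-fold; adjusted p = 0.0371) and not by edgeR (adjusted p = 0.0582). That call was lost on leaving out any eYFP+ or eYFP- library or Ly6Chi replicate 1 or 2, at DESeq2 adjusted p of 0.0574 to 0.108. It also passed for eYFP+ over Ly6Clo (log2 1.33; DESeq2 adjusted p = 0.00467; edgeR adjusted p = 0.0229). For eYFP- over Ly6Clo it passed by DESeq2 (log2 1.01; adjusted p = 0.0422) and not by edgeR (adjusted p = 0.0679). The latter call was lost on leaving out any library other than eYFP+ replicate 1 and the 3 Ly6Clo libraries, at DESeq2 adjusted p of 0.0603 to 0.152. Its transcript is rich in GC, and its lowest value was in Ly6Clo replicate 2.

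Counted by pair of groups, 5 members were called for eYFP+ against Ly6Chi, 7 for eYFP+ against Ly6Clo, 5 for eYFP- against Ly6Chi and 5 for eYFP- against Ly6Clo. The shares of all genes called in these comparisons were 24.5%, 28%, 27.4% and 26.3%. Tlr4, Cd14 and Ly96 were called in all 4. The call of Cd14 for eYFP- against Ly6Clo (log2 1.62) was lost with a GC correction, at an adjusted p of 0.0732 by DESeq2 and of 0.109 with the replicate block added, and its log2 was 2.27 without Ly6Clo replicate 2. Without that library, the log2 of Cd14 for eYFP+ against Ly6Clo was 2.50 in place of 1.85. Lbp was called in 3 and Tlr13 in 2 of them, both with eYFP- macrophages. Without Ly6Clo replicate 2, which is in neither comparison with Ly6Chi, 7 members were called for eYFP+ against Ly6Chi, with Tlr8 and Tlr9 added, and 7 for eYFP- against Ly6Chi, with Tlr2 and Tlr9 added. Without the GC pair the counts were 8, with Tlr2, Tlr8 and Tlr9 added, and 7, with Tlr2 and Tlr9 added. The shares of all genes given above are of the fit with all 12 libraries. For macrophages against monocytes, calls over all genes rose from 7915 to 9114 without Ly6Clo replicate 2 and to 9509 without the GC pair. The higher counts of members are thus not read as a result about the members. The 4 comparisons share libraries and are not independent.

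The receptors also made up different proportions of the Toll-like receptor mRNA. The TPM of the 6 receptors summed to 662.9 to 736 in eYFP+ macrophages, 290.4 to 630.4 in eYFP- macrophages, 432 to 492 in Ly6Chi monocytes and 365 to 462 in Ly6Clo monocytes. Tlr4 took 28.5% to 31% of this sum in the 6 macrophage libraries and 2.96% to 6.56% in the 6 monocyte libraries. This share was almost constant in macrophages although the sum itself varied, and eYFP- replicate 1, with the lowest sum, had 29.8%. Tlr13 took 15.6% to 22.1% in macrophages and 31.4% to 65.4% in monocytes, so monocytes were led by Tlr13 or Tlr2 where macrophages were led by Tlr4 or Tlr2. Tlr2 took 16.7% to 35.3% in macrophages, 33.5% to 42.3% in Ly6Chi monocytes and 8.88% to 32.6% in Ly6Clo monocytes. Tlr7 took 13.0% to 15.4% in macrophages and 10.3% to 12.3% in monocytes. Tlr8 spread from 5.49% to 22% and from 6.69% to 12.4%, and Tlr9 reached at most 0.65%. The 2.96% of Tlr4, 65.4% of Tlr13 and 8.88% of Tlr2 were all of Ly6Clo replicate 2, of the GC pair. Shares sum to a whole, so a rise of 1 receptor lowers the others.

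**Figure D3:**
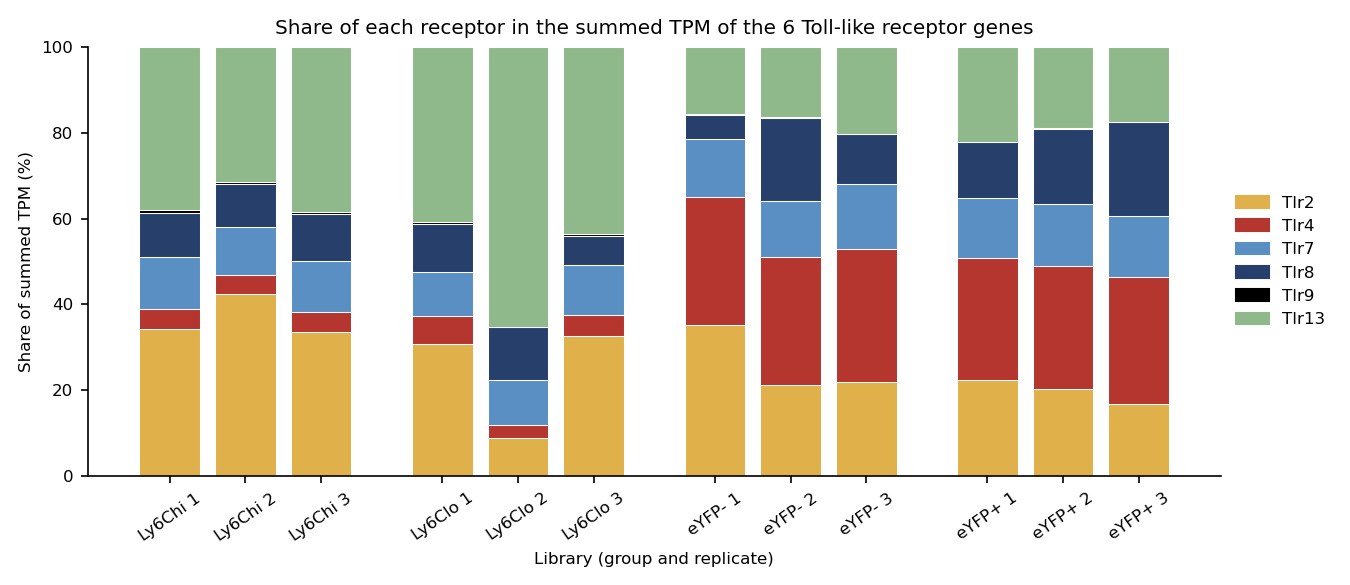
Share of the summed TPM of Tlr2, Tlr4, Tlr7, Tlr8, Tlr9 and Tlr13 taken by each receptor, in percent (vertical axis), stacked for each of the 12 libraries (horizontal axis). Tlr4 takes at least 28.5% in each macrophage library and at most 6.56% in each monocyte library, where Tlr13 takes at least 31.4%.

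The comparison by origin, eYFP+ against eYFP- macrophages, gave a call for 1 of 10 members, Lbp, which was lower in eYFP+ macrophages. Over all 21567 genes tested 2.04% were called, 0.153% higher and 1.88% lower. These 439 calls depended on single libraries: there were 227 without eYFP- replicate 3 and 865 without Ly6Clo replicate 2, and of 529 without eYFP- replicate 2 the share called higher was 34.4% in place of 7.52%. Lbp was 6.19-fold lower (log2 -2.63 ± 0.65, SE; 95% interval -3.91 to -1.35; DESeq2 adjusted p = 0.00567), and all 3 eYFP+ libraries lay under all 3 eYFP- libraries. By edgeR the adjusted p was 0.17 with a log2 of -2.65, and without eYFP- replicate 2, the highest of its group, DESeq2 gave -2.17 (adjusted p = 0.0732). Without eYFP+ replicate 2, the log2 of Lbp was -3.27, and by limma on log2(TPM + 1) it was -1.47 (adjusted p = 0.151). The call of Lbp thus rests on DESeq2. On simulated counts of this comparison DESeq2 called more unchanged genes than its threshold allows. Those genes had the same mean in all 4 groups, unlike these data, so the simulation cannot weigh the call of Lbp itself. The median log2 fold change of the members was 0.36, beside 0.05 over all genes.

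No member was called higher in eYFP+ macrophages by DESeq2 or edgeR, and 3 of them, Tlr4, Tlr7 and Tlr13, had an unadjusted p under 0.05 by both tools. In these the 3 eYFP+ libraries lay above the 3 eYFP- libraries. The share of all genes with such a p, or with no overlap, was not counted, so these are not read as a result about the members. The log2 fold changes were 0.65 for Tlr4 (95% interval 0.04 to 1.27; DESeq2 adjusted p = 0.493), 0.75 for Tlr7 (0.23 to 1.26; DESeq2 adjusted p = 0.14) and 0.89 for Tlr13 (0.14 to 1.63; DESeq2 adjusted p = 0.356). Unc93b1 did not overlap either, with a log2 of 0.31 (95% interval -0.46 to 1.09; DESeq2 adjusted p = 1). Without Ly6Clo replicate 2, a library of neither group, Tlr7 and Tlr13 passed by DESeq2 (adjusted p = 0.0398 and 0.0468) at nearly the same log2 values, 0.75 and 0.88, while the calls over all genes rose from 439 to 865. Tlr8 had a log2 of 1.07 (95% interval -0.03 to 2.16; DESeq2 adjusted p = 0.6), and 1.89 without eYFP- replicate 2 (DESeq2 adjusted p = 0.0146). For the LPS co-receptors the intervals included 0, from -0.21 to 0.84 for Ly96 and from -0.70 to 1.16 for Cd14.

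eYFP- replicate 1 was the lowest or highest library of its group for each member other than Tlr2. It was the lowest eYFP- library for Tlr4, Tlr7, Tlr8, Tlr13, Lbp and Unc93b1, and the highest for Cd14, Ly96 and Tlr9. Tlr3, another endosomal receptor, was likewise low in it, with 236 normalized counts against 1125 and 909.7 in the other eYFP- libraries.

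Markers of other cells differed between the same macrophage groups as Lbp. The 6 stem and progenitor markers summed to 183, 608 and 706 TPM in the eYFP- libraries and to 8.01, 46.2 and 13.2 TPM in the eYFP+ libraries, and 4 of the 6 were called lower in eYFP+ macrophages by DESeq2 and 1 by edgeR. Of the other lists edgeR called 1 monocyte marker and no other gene, and the counts that follow are of DESeq2. Elane, a granule enzyme of myeloid progenitors, was at 0 counts in eYFP+ replicate 1. Of 6 monocyte markers tested, 3 were lower in eYFP+ macrophages, with sums of 53.9, 127 and 72.9 TPM in eYFP- and 50.9, 72.1 and 49.3 TPM in eYFP+ libraries. The 8 neutrophil markers, of which 2 were lower, summed to 67.5, 2033 and 113 TPM in eYFP- and 201, 92.3 and 113 TPM in eYFP+ libraries. eYFP- replicate 2, the highest eYFP- library for Lbp, was also the highest for monocyte and neutrophil markers. None of the 8 macrophage markers was called by DESeq2 or edgeR, with sums of 29480 to 29576 TPM in eYFP- and 34456 to 37287 TPM in eYFP+ libraries. Of the erythroid markers 1 of 5 was lower in eYFP+ macrophages (17330 to 28252 TPM in eYFP-, 6735 to 11748 TPM in eYFP+), as was 1 of 4 tested eosinophil and basophil markers (249 to 1303 TPM and 12.2 to 20 TPM). Sums of B cell, stromal and plasmacytoid dendritic cell markers were 459 to 584, 86.0 to 114 and 2.84 to 10.4 TPM in eYFP- libraries and 471 to 702, 47.0 to 57.2 and 5.17 to 8.89 TPM in eYFP+ libraries. The part of these cells in the difference of Lbp was not tested.

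**Figure D4:**
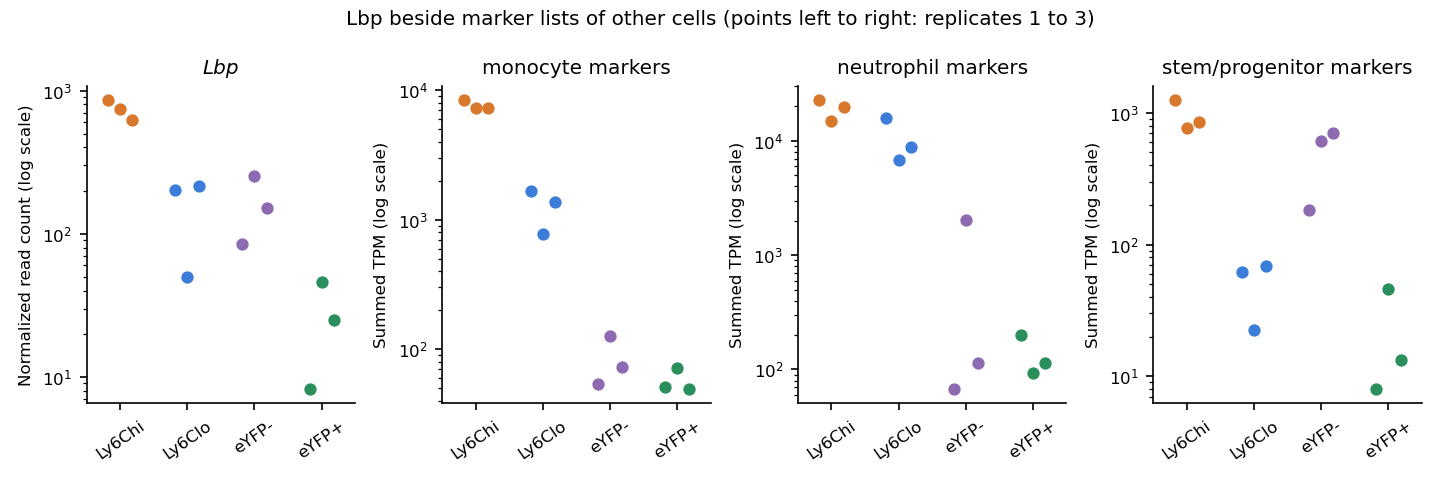
Lbp in normalized counts (left panel) and the summed TPM of monocyte, neutrophil and stem and progenitor markers (other panels) in the 12 libraries. Each point is a library, grouped along the horizontal axis by cell population, and the vertical axes are logarithmic. eYFP+ macrophages are lowest in Lbp, at 8.23 to 45.8 normalized counts. They have 8.01 to 46.2 TPM of progenitor markers, against 183 to 706 TPM in eYFP- macrophages.

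Within monocytes, the comparison of Ly6Chi with Ly6Clo cells likewise called 1 of 10 members, and again it was Lbp. Lbp was 4.74-fold higher in Ly6Chi monocytes (log2 2.24 ± 0.64, SE; 95% interval 0.99 to 3.49; DESeq2 adjusted p = 0.00864), and edgeR gave an adjusted p of 0.0864. Of all genes tested 8.62% were called here, 3.66% higher and 4.97% lower in Ly6Chi monocytes. Without Ly6Chi replicate 1 the call for Lbp was lost (log2 2.13; DESeq2 adjusted p = 0.0668). The progenitor markers summed to 767 to 1240 TPM in Ly6Chi and 22.5 to 69.3 TPM in Ly6Clo monocytes, with 2 of the 6 called higher in Ly6Chi monocytes, Mpo and Elane, and a median log2 of -0.48 over the 6. Of 8 macrophage markers 7 were called lower in Ly6Chi monocytes (1327 to 1489 TPM, against 860.5 to 3250 TPM in Ly6Clo monocytes), and of 8 neutrophil markers 1 was lower (14993 to 22582 TPM and 6776 to 15997 TPM). By DESeq2, 2 of 6 tested monocyte markers were higher and 2 lower. Of the eosinophil and basophil markers 1 of 4 tested was higher and 2 were lower by DESeq2, none by edgeR, with sums of 3.65, 1.76 and 43.8 TPM in Ly6Chi and 4.98, 0 and 561 TPM in Ly6Clo libraries. Of 3 plasmacytoid dendritic cell markers 1 was higher and 1 lower, and 1 of 5 B cell and 1 of 6 stromal markers were lower. The part of these markers in this difference of Lbp was not tested. The median log2 fold change of the members was 0.29, beside 0.02 over all genes.

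No member was called lower in Ly6Chi monocytes by DESeq2 or edgeR, and Cd14 alone had an unadjusted p under 0.05 in that direction by both tools. The log2 fold change of Cd14 was -0.99 (95% interval -1.93 to -0.06; DESeq2 adjusted p = 0.202), and -0.29 without Ly6Clo replicate 2. Unc93b1 (log2 0.94, 95% interval 0.16 to 1.71; DESeq2 adjusted p = 0.131) and Tlr2 (log2 0.86, 95% interval 0.08 to 1.65; DESeq2 adjusted p = 0.182) had positive intervals without passing. Without the GC pair of libraries Unc93b1 passed with a smaller log2 of 0.57 (DESeq2 adjusted p = 0.0226), and without Ly6Clo replicate 3 it passed with 1.22 (DESeq2 adjusted p = 0.0425). For Tlr4 the log2 was 0.15 (95% interval -0.47 to 0.77; DESeq2 adjusted p = 0.851).

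Other genes of the pathway were read from 6 lists with 54 genes, of which 53 could be tested. Bpi, an LPS-binding protein of neutrophil granules, had a count only in Ly6Chi replicate 1. Between macrophages and monocytes 31 of 53 were called, 11 higher and 20 lower in macrophages, with a median log2 of -0.41 beside 0.08 over all genes and 35.4% called. Genes are named by adjusted p, at most 4 in each direction per list.

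Of the 6 other Toll-like receptors 5 were called. Tlr12, a receptor of the profilin-sensing branch, had 627 to 1062 normalized counts in the 6 macrophage libraries and 0 to 145 in the monocyte libraries (log2 4.5 ± 0.73, SE; DESeq2 adjusted p = 7.88e-09). The log2 of Tlr12 was 5.2 without Ly6Chi replicate 2 and 3.15 by limma on log2(TPM + 1). Tlr3, the double-stranded RNA receptor, was higher in macrophages (log2 1.64; DESeq2 adjusted p = 8.36e-05), as was Tlr1, a partner of Tlr2 (log2 0.88; DESeq2 adjusted p = 0.00154). Tlr5, the flagellin receptor, had at most 48.6 normalized counts in macrophages, with 0 in eYFP- replicate 1, and 64.0 to 315 in monocytes (log2 -2.67; DESeq2 adjusted p = 0.000381). By limma on log2(TPM + 1) the log2 of Tlr5 was -1.36. Tlr11 was lower as well (log2 -1.24; DESeq2 adjusted p = 0.00608), and Tlr6 did not pass.

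Among proteins that handle LPS elsewhere, 3 of 6 tested were called. Casp4, the inflammatory caspase that binds LPS in the cytosol, was lower in macrophages (log2 -1.43 ± 0.22, SE; DESeq2 adjusted p = 2.22e-09). So was Gsdmd, the pore-forming protein that this caspase cleaves (log2 -1.43 ± 0.38, SE; DESeq2 adjusted p = 0.000828). Casp4 had 277 to 662 normalized counts in macrophages and 682 to 1595 in monocytes, with no overlap. Aoah, which removes acyl chains from LPS and inactivates it, was higher (log2 0.77; DESeq2 adjusted p = 0.0077), and stood at an adjusted p of 0.0501 without eYFP- replicate 2 by DESeq2. Macrophages thus had more mRNA for the surface LPS receptor complex and less for these cytosolic LPS-response genes than monocytes.

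Of the genes for receptor folding, transport and cleavage, 4 of 8 were called. Lgmn, an endopeptidase that trims endosomal receptors, was 6.92-fold higher in macrophages (log2 2.79 ± 0.27, SE; DESeq2 adjusted p = 2.49e-23). Ctsl, a cathepsin of the same step, was 6.92-fold higher too (log2 2.79 ± 0.29, SE; DESeq2 adjusted p = 1.67e-20). Hsp90b1, the endoplasmic reticulum chaperone of most Toll-like receptors, rose by a log2 of 0.75 (DESeq2 adjusted p = 1.64e-05). Slc15a4, an endolysosomal transporter needed for Tlr7 and Tlr9 signalling, was lower (log2 -0.88; DESeq2 adjusted p = 0.0184). The call for Slc15a4 was lost without eYFP+ replicate 2, eYFP- replicate 2 or 3 or Ly6Chi replicate 1, at DESeq2 adjusted p of 0.0542 to 0.0694.

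Of 17 adaptors and kinases that signal downstream of the receptors, 8 were called lower in macrophages, 1 was called higher and 8 did not pass, where 15.0% of all genes were called lower and 20.3% higher. Ikbkb, the kinase that releases NF-kB, had 4928 to 6219 normalized counts in macrophages and 12639 to 19305 in monocytes (log2 -1.64 ± 0.15, SE; DESeq2 adjusted p = 9.43e-26). Traf3 (log2 -1.65; DESeq2 adjusted p = 3.11e-07), Ticam2, the bridging adaptor of Tlr4 (log2 -1.71; DESeq2 adjusted p = 4.15e-06), and Myd88, the adaptor of most Toll-like receptors (log2 -1.07; DESeq2 adjusted p = 1.82e-05), were lower as well. Myd88 had 1929 to 4569 normalized counts in macrophages and 5087 to 10176 in monocytes. Ikbkg, the regulatory subunit of the same kinase complex, was the called gene in the other direction (log2 0.60; DESeq2 adjusted p = 0.014). Its call was lost without eYFP- replicate 2 or Ly6Chi replicate 1 (DESeq2 adjusted p = 0.08 and 0.0521). Transcripts for the LPS receptor complex and for Myd88 and Ticam2 therefore differed in opposite directions between the cell types.

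**Figure D5:**
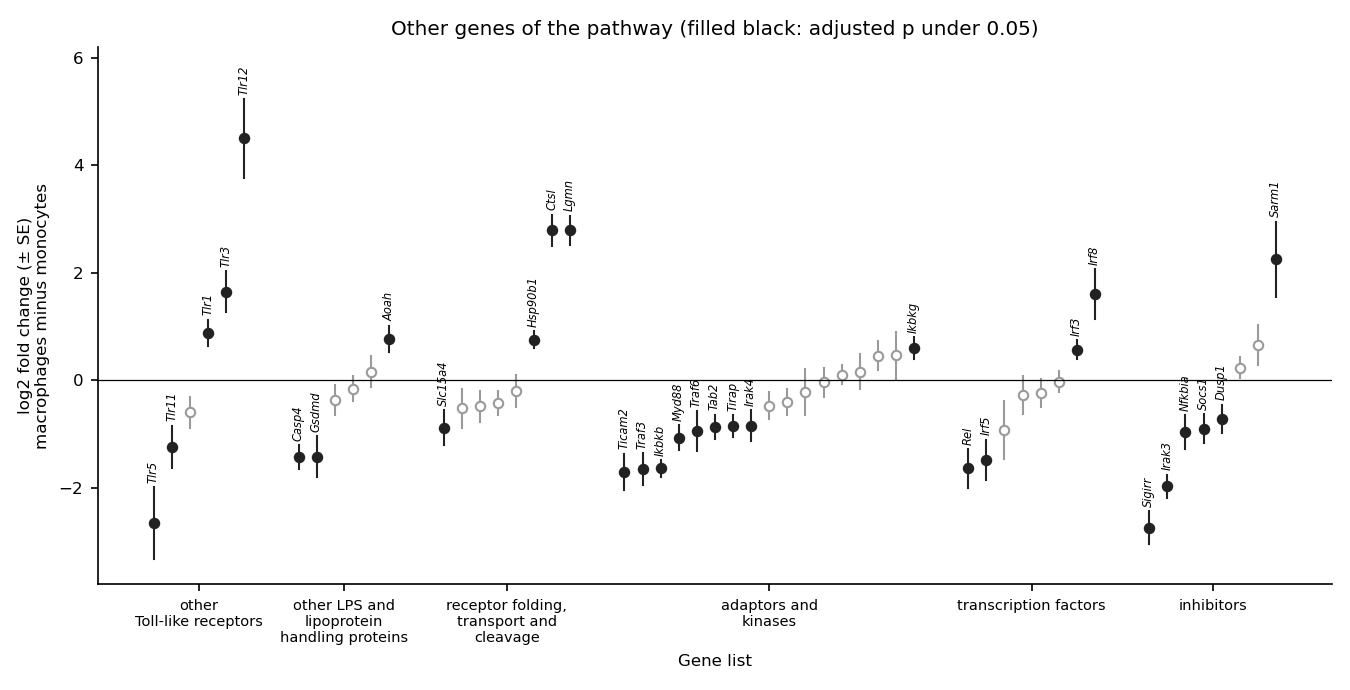
Log2 fold changes, with bars of ± SE, of the 53 tested pathway genes between macrophages and monocytes (vertical axis), grouped by list along the horizontal axis. Filled points passed DESeq2 at an adjusted p under 0.05 and are labelled. Of the 17 adaptors and kinases 8 were called lower in macrophages and 1 higher, and 31 of the 53 genes were called in all.

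Of 8 transcription factors 4 were called: Rel (log2 -1.64; DESeq2 adjusted p = 4.24e-05) and Irf5 (log2 -1.49; DESeq2 adjusted p = 0.000472) were lower in macrophages, and Irf8 (log2 1.60; DESeq2 adjusted p = 0.0022) and Irf3 (log2 0.57; DESeq2 adjusted p = 0.00612) higher. Irf5 and Irf8 were both lowest, within their cell type, in the library of the GC pair: 5233 and 5878 normalized counts in eYFP+ replicate 1, and 5998 and 1789 in Ly6Clo replicate 2. Of 8 inhibitors 6 were called, 5 of them lower. Irak3, which blocks signalling at the Irak step, had 705 to 1119.7 normalized counts in macrophages and 2939 to 5395 in monocytes (log2 -1.97 ± 0.22, SE; DESeq2 adjusted p = 1.32e-18). Sigirr, an inhibitory receptor that dampens Tlr4 signalling, was 6.72-fold lower in macrophages (log2 -2.75 ± 0.31, SE; DESeq2 adjusted p = 4.89e-18). Socs1 (log2 -0.90; DESeq2 adjusted p = 0.00414) and Nfkbia (log2 -0.96; DESeq2 adjusted p = 0.00762) were lower too, and Sarm1 was higher from at most 36.1 normalized counts in monocytes (log2 2.25; DESeq2 adjusted p = 0.0057), a call lost without eYFP- replicate 2 (log2 1.78; DESeq2 adjusted p = 0.0802). Without Ly6Clo replicate 3 the log2 of Sarm1 was 3.08, and by limma on unfiltered log2(TPM + 1) it was 0.55 (adjusted p = 0.126).

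Between eYFP+ and eYFP- macrophages 1 of the 53 pathway genes was called, Sigirr, lower in eYFP+ macrophages. That count is near the background, in which 2.04% of all genes were called and 1.88% were lower. Sigirr had 34, 42.9 and 77.0 normalized counts in eYFP+ macrophages and 120.5, 305 and 226 in eYFP- macrophages. Ly6Chi monocytes had 600.3, 669 and 475, and Ly6Clo monocytes 817, 1083 and 715. As for Lbp, the eYFP+ libraries were the 3 lowest of the 12 and eYFP- replicate 2 was the highest macrophage library. Sigirr was 4.21-fold lower in eYFP+ macrophages (log2 -2.07 ± 0.44, SE; DESeq2 adjusted p = 0.00042), and the adjusted p was 0.0592 by edgeR. The marker sums given for Lbp apply here too, and their part in the result was not tested. No pathway gene was called higher by DESeq2 or edgeR, and 1 had an unadjusted p under 0.05 in that direction by each.

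Between the monocyte groups 8 of 53 pathway genes were called, 3 higher and 5 lower in Ly6Chi monocytes. Of all genes 8.62% were called, 3.66% higher and 4.97% lower. Without the GC pair 16 pathway genes were called, 9 higher and 7 lower, while the calls over all genes went from 1860 to 2696. Cd36, a scavenger receptor that assists Tlr2 with lipoproteins, had 563, 759 and 479.8 normalized counts in Ly6Chi monocytes and 19931, 58532 and 26900.0 in Ly6Clo monocytes. It was 58.5-fold lower in Ly6Chi monocytes (log2 -5.87 ± 0.41, SE; DESeq2 adjusted p = 7.08e-43), and macrophages lay between, at 4277 to 7207. Without Ly6Clo replicate 2, its highest library, the log2 of Cd36 was -5.28. Ikbke, a kinase that acts on Irf3 and Irf7, was higher in Ly6Chi monocytes (log2 3.27; DESeq2 adjusted p = 1.19e-10), as were Aoah (log2 2.16; DESeq2 adjusted p = 7.73e-08) and Irf7 (log2 1.73; DESeq2 adjusted p = 0.000189). Dusp1, a phosphatase that switches off p38 kinase (log2 -2.20; DESeq2 adjusted p = 4.32e-07), Lgmn (log2 -1.73; DESeq2 adjusted p = 0.000269) and Nfkb1 (log2 -1.03; DESeq2 adjusted p = 0.00414) were lower. Tab2 was lower by DESeq2 (log2 -0.93; adjusted p = 0.0384) and not by edgeR (adjusted p = 0.0882). Its call was lost on leaving out any library other than eYFP+ replicate 1 and Ly6Clo replicates 1 and 3, at DESeq2 adjusted p of 0.056 to 0.161.

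The genes most like each member were sought among 11057 genes by Pearson r over the 12 libraries on the deposited variance-stabilised values. The libraries share cell type, group and depth, so these values describe likeness only. For Tlr4 they were Ncoa4 (r = 0.994), the cargo receptor for ferritin, Ncapg2 (0.991) and Mast4 (0.990). Ly96 was most like the inhibitory receptor Cd200r1 (0.992), Cd14 most like the reductase Akr1e1 (0.994) and Lbp most like Ndrg1 (0.988). Unc93b1 was closest to Tcirg1 (0.979), a subunit of the vacuolar proton pump, and Tlr13 to Tmod3 (0.967). The closest genes were Prkaa1 for Tlr8 (0.960), Ice1 for Tlr2 (0.955), Rpl27a for Tlr9 (0.953) and Gosr1 for Tlr7 (0.949).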

How the data were processed

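Full-length cDNA was amplified from RNA of sorted bone marrow myeloid cells and read by paired-end sequencing. The authors, according to their methods, trimmed and error-corrected the reads, removed ribosomal RNA and aligned the rest with segemehl to GRCm39 with the Ensembl annotation. The authors deposited counts of read pairs per gene from featureCounts. No molecular identifiers were described, so reads are not independent molecules, and the use of strand in counting is not given in the sources used here. The deposited TPM are counts per gene length scaled to 1 sum by the authors, and the deposited variance-stabilised values, close to a log2 scale, were made by the authors with DESeq2. Base calling used bcl2fastq 2.20.0.422 per the submitters' processing notes.

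The sample titles gave the groups and the replicate numbers. Symbols from GENCODE M21 matched 91.4% of identifiers. M21 is of another build, so only names and the GC content and length of transcripts were used from it. No exon of a member overlapped an exon of another gene there. The test of counts was DESeq2 1.42.0 (R 4.3.3), with median-of-ratios size factors, 1 fit over 12 libraries with group as the only factor, Wald tests, and Benjamini-Hochberg adjustment over all genes tested at 0.05. All 4 groups thus set the dispersion of a gene. Log2 fold changes are unshrunken. The members, the lists of pathway genes and markers and the tests were chosen with earlier results of these data known. All members were named. Of each pathway list, called genes were named by adjusted p, at most 4 in each direction. Likeness was measured over genes with a mean of at least 50 normalized counts, without predicted-gene names.

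Alternatives were edgeR 4.0.16 (quasi-likelihood, TMM, filterByExpr), limma 3.58.1 on log2(TPM + 1) or log2(TPM + 0.1) at a mean TPM of at least 0.5 or unfiltered, other scalings and filters, a fold change of at least 2, the replicate number as a block, a GC correction, the libraries of a contrast alone, and leaving out each library. Leaving out both libraries of the GC pair, and the block with the GC correction, were added after seeing the data. Libraries of 1 group differed beyond sampling noise, so none was counted as a duplicate. DESeq2 and edgeR were tried on simulated counts of the comparison of eYFP+ with eYFP- macrophages. There DESeq2 called more unchanged genes than its threshold allows, more than edgeR did, and edgeR recovered fewer of the changed genes. The simulated unchanged genes had the same mean in all 4 groups, unlike these data, so the outcome may not carry over to them.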

Additional observations from a re-analysis of the deposited data

How the results depend on the processing

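Between macrophages and monocytes, Tlr4, Cd14, Ly96, Lbp and Tlr13 passed an adjusted p under 0.05 in all 27 alternatives with the same sign, Tlr7 in 25 and Unc93b1 in 14. Of those not called, Tlr9 passed in 7, Tlr8 in 3 and Tlr2 in 1. Without the GC pair 39 pathway genes were called in place of 31, without Ly6Clo replicate 2 there were 35, and without eYFP- replicate 2 there were 26. With a fold change of at least 2 also required, 4 of the 7 called members remained, without Tlr7, Tlr13 and Unc93b1, and 18 of the 31 pathway genes. limma on log2(TPM + 1) with no filter on low values called 20 pathway genes. The sign of Tlr2, not called, turned to a log2 of 0.0144 by limma on log2(TPM + 1), with and without the filter, and 0.0161 on log2(TPM + 0.1). Fitting the libraries of the contrast only gives no separate value here, since all 12 belong to it.

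Calls within a cell type depended on the tool. Between eYFP+ and eYFP- macrophages, edgeR called 0 members (4 at an unadjusted p under 0.05), as did limma on log2(TPM + 1) with and without the filter (5 unadjusted in each) and on log2(TPM + 0.1) (4 unadjusted). edgeR called 0 pathway genes (3 unadjusted), as did limma on log2(TPM + 0.1) (1 unadjusted) and with no filter (2 unadjusted). Between Ly6Chi and Ly6Clo monocytes, edgeR and limma on log2(TPM + 0.1) called 0 members (4 unadjusted each). Over all genes edgeR called 64 for eYFP+ against eYFP- and 829 for Ly6Chi against Ly6Clo, where DESeq2 called 439 and 1860. Over all alternatives these counts ran from 24 (edgeR with the replicate block) to 1155 (DESeq2 with it) and from 537 (edgeR with it) to 2696 (without the GC pair). Lbp passed in 22 of 28 alternatives between the macrophage groups and in 24 of 28 between the monocyte groups. The cause of the difference between tools was not tested.

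Leaving out each library in turn gave 1 to 3 called members between eYFP+ and eYFP- macrophages, 3 (Tlr7, Tlr13 and Lbp) without Ly6Clo replicate 2, where the calls over all genes rose from 439 to 865, and 1 to 2 pathway genes, 2 without eYFP- replicate 1. Without eYFP- replicate 2 the called member was Tlr8. Between Ly6Chi and Ly6Clo monocytes 0 to 2 members were called, 0 without Ly6Chi replicate 1 and 2 without Ly6Clo replicate 3. Without the GC pair 2 members (Lbp and Unc93b1) and 16 pathway genes were called there, where the calls over all genes rose from 1860 to 2696. For eYFP+ against Ly6Chi 8 members were called without this pair. The GC correction, alone or with the replicate block, left 3 members called for eYFP- against Ly6Clo.

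Other reversals were of values that were not called. For eYFP+ against eYFP- macrophages, Tlr9 ran from -1.21 to 0.44 on the log2 scale over the libraries left out, with 0.34 without the GC pair and 0.016 with GC correction and replicate block. Cd14 ran from -0.13 to 0.42, with -0.14 without the GC pair. For Ly6Chi against Ly6Clo, Tlr4 ran from -0.024 to 0.41, with -0.026 without the GC pair, Tlr8 from -0.098 to 0.51, and Tlr13 from -0.51 to 0.069, with 0.067 without the GC pair. Total-count scaling moved the median log2 fold change of all genes between eYFP+ and eYFP- macrophages by -0.10, and no scaling turned a called member.

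The labels do not say whether a shared replicate number marks a shared mouse or day, so pairing is unknown. Serial numbers in the column names run in blocks by replicate number, with the 4 groups in each block, without saying what was shared. The replicate numbers were not taken to pair the samples since not every pair correlated over 0.1. Deviations of same-numbered libraries from their group means correlated over 2000 genes at 0.311, 0.167 and 0.0723 in macrophages and at 0.0714, -0.00528 and 0.00806 in monocytes. eYFP+ replicate 3 correlated best with eYFP- replicate 2 (0.191). With the replicate block DESeq2 called as many members as without it, 1 for eYFP+ against eYFP-, 1 for Ly6Chi against Ly6Clo and 7 between cell types, while the calls over all genes for eYFP+ against eYFP- rose to 1155, with 40.8% higher. edgeR with the replicate block called 0, 0 and 7 members (4, 3 and 7 unadjusted), and 0 pathway genes for eYFP+ against eYFP- (2 unadjusted).

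With 3 libraries in each group, intervals within a cell type spanned more than 1 log2 unit for each member, and a difference that missed the threshold is not shown to be absent. Lbp and Tlr9 rested on as few as 8 and 2 counts in a library.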
